A study of Mus musculus with 8 samples.

Results

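The 10 genes described here encode the dimerising leucine zipper proteins of the AP-1 family and its close relatives, namely Fos, Fosb, Fosl1, Fosl2, Jun, Junb, Jund, Atf3, Maff and Mafk. They were taken by name from the 49671 gene rows of each deposited count file, through the GRCm38 symbols of their Ensembl identifiers, and all 10 passed the filter on low counts. AP-1 is a pair of such proteins, usually a Fos protein with a Jun protein or a Jun protein with another Jun protein, bound to short DNA elements. Fos, Fosb, Jun, Junb and Atf3 are textbook immediate early genes, whose transcripts rise and decay quickly after growth factors or stress act through MAP kinases and serum response factor. Jund and Fosl2 are known for steadier expression, and Fosl1 for later and longer expression that AP-1 itself can drive. The small Maf proteins MAFF and MAFK carry no activation domain and act as partners of cap'n'collar factors such as NRF2.

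The counts come from polyadenylated RNA of 8 mouse samples labelled adipocytes. The 4 BMPR2 DELX samples are from mutant mice, the gene symbol in the name being that of the BMP type II receptor, and the 4 ROSA samples are from the mice used as their control. The labels used here do not describe either allele and do not give the promoter or cell type that carries the mutation, the age or sex of the animals, the fat depot, any culture or treatment of the cells, or whether each sample is 1 animal, so p-values measure the spread between samples, which may be technical. In bulk RNA, fewer cells of a type and less RNA per cell cannot be told apart.

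Between 28799445 and 43684785 counts per library were assigned to genes, and reads assigned to no gene were 14.7% to 21.95% of each library, the most in ROSA 1. Of 10 adipocyte markers, 7 stayed under 1 CPM, the count scaled to the library total, in all libraries. Among these 7, the adiponectin gene Adipoq had at most 6 counts and the lipid droplet gene Plin1 at most 2. The remaining genes of the list were expressed, Fabp4 at 33.8 to 71.7 CPM, Lpl at 114 to 246 CPM and Pparg at 11.4 to 26.9 CPM. The collagen gene Col1a1 had 4421 to 7432 CPM and the smooth muscle actin gene Acta2 5372 to 8171 CPM. Other markers of the same lists were low. Of 10 fibroblast markers 1, Dpt, stayed under 1 CPM in all libraries, as did 1 of 8 smooth muscle markers, Rgs5. The fibroblast markers Lum and Dcn had at most 1.32 CPM and 6.17 to 36.5 CPM. Bmpr2, the gene named in the mutant label, had 237, 208, 201 and 199 CPM in BMPR2 DELX 1 to 4, against 216, 207, 183 and 183 CPM in ROSA 1 to 4. Its log2 fold change was 0.10 ± 0.08 (edgeR adjusted p 0.47), and a total per gene does not show which exons are present. CPM below are scaled by trimmed mean of M values (TMM), and a gene is called at an adjusted p below 0.05. Fold changes are log2 values of BMPR2 DELX over ROSA ± SE, with 4 libraries per group, from the edgeR quasi-likelihood test adjusted by Benjamini-Hochberg over all 14887 tested genes.

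The values fell into 3 patterns. Member positions are GRCm38 gene spans from the GENCODE annotation. Fosl1, Maff and Mafk were lower in every BMPR2 DELX library than in any ROSA library, by 1.57-fold to 2.16-fold, and were the members called. Fos, Fosb, Jun, Junb, Fosl2 and Atf3 stood high in ROSA 1 and ROSA 2, while ROSA 3 and ROSA 4 lay nearer the BMPR2 DELX libraries, and none of these 6 was called. Of these 6, Fosb too was lower in every BMPR2 DELX library than in any ROSA library, so it shares a trait of the first pattern. Jund had similar levels in both groups. Of the 10 members, 3 were called lower and 0 higher by edgeR, and 7 were not called. Over all tested genes, 5.15% were called lower and 3.96% higher, 9.1% in either direction. With upper-quartile factors the genes called lower and higher numbered 606 and 734, against 766 and 589 with TMM, and the members called stayed these 3. At an unadjusted p below 0.05 the members numbered 8, against 26.3% of all tested genes. DESeq2 called 4 members lower and 0 higher, Fosb being the addition. It also called more genes over all, 1185 lower (4.14% of its 28614 genes) and 1081 higher. The median log2 fold change of the members was -0.70, and that of all tested genes was 0.005.

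**Figure D1:**
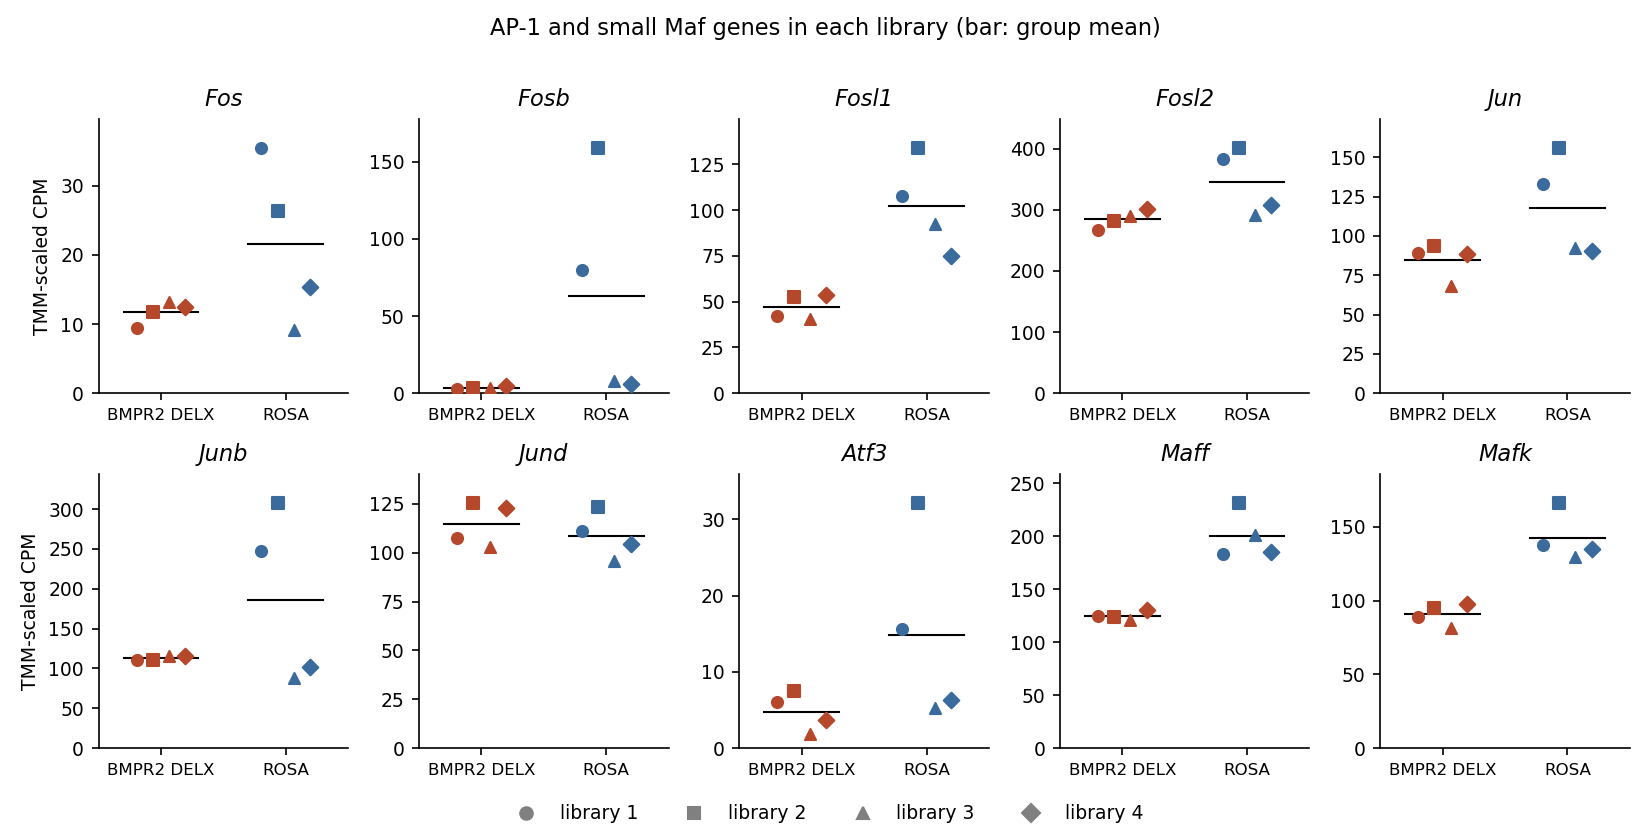
TMM-scaled CPM (vertical axes, from 0) of each member in the 4 BMPR2 DELX and the 4 ROSA libraries, with a marker shape for the library number and a bar at the group mean. Fosb, Fosl1, Maff and Mafk separate the groups, and ROSA 1 and ROSA 2 are the 2 highest libraries in 8 of the 10 panels.

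Fos (ENSMUSG00000021250, chr12:85473890-85477273, plus strand) encodes the founding member of the family and pairs with Jun proteins. Its level was 9.46, 11.8, 13.2 and 12.4 CPM in BMPR2 DELX 1 to 4, against 35.4, 26.3, 9.15 and 15.3 CPM in ROSA 1 to 4. ROSA 3 was the lowest of all 8 libraries and ROSA 1 the highest, so the groups overlapped. The log2 fold change was -0.88 ± 0.38 (edgeR adjusted p 0.19), it was -0.045 without ROSA 1 and ROSA 2, and the call appeared only in the fit without ROSA 3, at -1.13 with an adjusted p of 0.042. That pair of libraries was left out after the values had been seen, which leaves 4 libraries against 2, and in that fit 1.11% of all tested genes were called.

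Fosb (ENSMUSG00000003545, chr7:19302696-19310051, minus strand), whose protein also forms dimers with Jun proteins, had the widest span of the family. It had 3.01, 3.55, 3.55 and 4.51 CPM in BMPR2 DELX 1 to 4, against 79.8, 159, 7.72 and 5.69 CPM in ROSA 1 to 4. ROSA 2 was 27.9-fold above ROSA 4, yet even ROSA 4 lay above each BMPR2 DELX library. Its log2 fold change was -4.10 ± 1.10 with an edgeR adjusted p of 0.058, just outside the threshold, and it was -0.85 ± 0.20 (adjusted p 0.092) without ROSA 1 and ROSA 2. The gene was called at an adjusted p of 0.045 without ROSA 3 and of 0.031 without ROSA 4. DESeq2 called it, with a log2 fold change of -4.11 and an adjusted p of 9e-04, and so did edgeR with genes kept at 1 CPM in 4 libraries, at an adjusted p of 0.047. It was not called by limma voom, at -2.96 with an adjusted p of 0.23, by edgeR with no count filter, at -4.09 with 0.16, or without ROSA 2, at -3.07 with 0.14.

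Fosl1 (ENSMUSG00000024912, chr19:5447547-5455946, plus strand), which encodes FRA1, a Fos protein without the strong activation domain of FOS, fell. Its libraries had 42.2, 52.3, 40.6 and 53.7 CPM in BMPR2 DELX 1 to 4, against 108, 134, 92.2 and 74.8 CPM in ROSA 1 to 4. The highest BMPR2 DELX library was below the lowest ROSA library, ROSA 4. This gave a log2 fold change of -1.11 ± 0.17 (edgeR adjusted p 0.0083), or 2.16-fold lower. It was called in all 8 fits that left out 1 library, with values of -1.24 to -0.95, and in the fit without ROSA 1 and ROSA 2, where it was -0.81 with an adjusted p of 0.047.

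Fosl2 (ENSMUSG00000029135, chr5:32135801-32157842, plus strand), which encodes FRA2, was the member with the highest CPM but also has the longest exons, 9680 bases in all. It had 268, 282, 291 and 301 CPM in BMPR2 DELX 1 to 4, against 383, 401, 292 and 308 CPM in ROSA 1 to 4. The groups met at BMPR2 DELX 4 and ROSA 3, and ROSA 1 and ROSA 2 stood apart above. Fosl2 had a log2 fold change of -0.28 ± 0.10 (edgeR adjusted p 0.12), and -0.058 without ROSA 1 and ROSA 2.

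Jun (ENSMUSG00000052684, chr4:95049034-95052222, minus strand) encodes the partner shared by most AP-1 dimers. Its level was 89.3, 93.7, 68.3 and 88.4 CPM in BMPR2 DELX 1 to 4, against 133, 156, 92.4 and 90.6 CPM in ROSA 1 to 4. BMPR2 DELX 2 lay above ROSA 3 and ROSA 4. For Jun the log2 fold change was -0.47 ± 0.19 (edgeR adjusted p 0.14), and -0.093 without ROSA 1 and ROSA 2.

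Junb (ENSMUSG00000052837, chr8:84974484-84978718, minus strand) encodes a Jun protein of weaker activating capacity. It had 110.3, 111, 116 and 116 CPM in BMPR2 DELX 1 to 4, a span of 1.05-fold, against 248, 308, 88.0 and 102 CPM in ROSA 1 to 4, a span of 3.50-fold. The BMPR2 DELX libraries lay between the 2 high and the 2 low ROSA libraries. The log2 fold change was -0.72 ± 0.39 (edgeR adjusted p 0.29), and its sign turned without ROSA 1 and ROSA 2, to 0.27 ± 0.08 with an adjusted p of 0.16.

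Jund (ENSMUSG00000071076, chr8:70698949-70700616, plus strand) encodes the Jun protein of resting cells. It had 107, 126, 103 and 123 CPM in BMPR2 DELX 1 to 4, against 111, 123, 96.0 and 105 CPM in ROSA 1 to 4. The groups overlapped throughout, with a log2 fold change of 0.08 ± 0.09 (edgeR adjusted p 0.64), the single positive value among the members. The annotated gene Gm11175 overlaps Jund on the opposite strand, and the unstranded count column holds 24.9% to 29.3% of the reads that the opposite-strand column gives to Jund. For the other members that figure ran from 89.8% to 107%.

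Atf3 (ENSMUSG00000026628, chr1:191170296-191218039, minus strand) encodes a stress-induced bZIP protein that pairs with Jun proteins and often represses. It was the least even member among the mutants, with 6.09, 7.44, 1.91 and 3.64 CPM in BMPR2 DELX 1 to 4, against 15.7, 32.2, 5.22 and 6.30 CPM in ROSA 1 to 4. The BMPR2 DELX libraries 1 and 2 lay above ROSA 3, and BMPR2 DELX 3 was the lowest of all, on 65 counts. With this spread the log2 fold change was -1.65 ± 0.66 (edgeR adjusted p 0.16), and -0.26 ± 0.49 without ROSA 1 and ROSA 2.

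Maff (ENSMUSG00000042622, chr15:79346621-79359076, plus strand), one of the small Maf genes, fell with the smallest p of the family. It had 124, 124, 122 and 131 CPM in BMPR2 DELX 1 to 4, against 184, 232, 201 and 186 CPM in ROSA 1 to 4. A clear gap separated the groups, and the high ROSA library was ROSA 2 alone, with ROSA 1 the lowest of its group. The log2 fold change was -0.68 ± 0.08 (edgeR adjusted p 0.0027), and -0.61 ± 0.07 (adjusted p 0.018) without ROSA 1 and ROSA 2.

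Mafk (ENSMUSG00000018143, chr5:139791513-139802653, plus strand), its paralog, fell as well. It had 88.7, 95.0, 81.6 and 97.9 CPM in BMPR2 DELX 1 to 4, against 138, 166, 129.6 and 135 CPM in ROSA 1 to 4. Every ROSA library was above every BMPR2 DELX library here too. Mafk had a log2 fold change of -0.65 ± 0.09 (edgeR adjusted p 0.0043), and -0.53 ± 0.09 (adjusted p 0.039) without ROSA 1 and ROSA 2. Both small Maf genes were called in all 8 fits that left out 1 library, with values of -0.72 to -0.60 for Maff and -0.69 to -0.56 for Mafk.

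**Figure D2:**
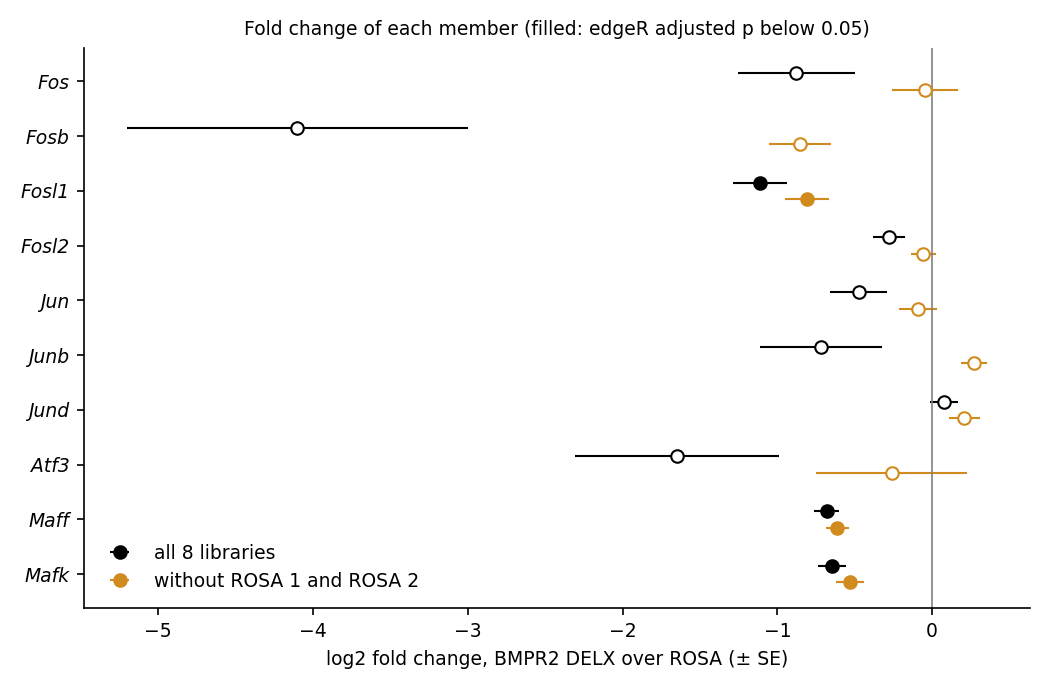
Log2 fold change of BMPR2 DELX over ROSA (horizontal axis, bars ± SE) of each member with all 8 libraries (black) and without ROSA 1 and ROSA 2 (orange); filled points have an edgeR adjusted p below 0.05. Fosl1, Maff and Mafk are filled in both fits, while Fos, Fosl2, Jun, Junb and Atf3 move to between -0.26 and 0.27 in the fit without the 2 libraries.

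For 4 of the members all BMPR2 DELX libraries lay below all ROSA libraries, Fosb, Fosl1, Maff and Mafk, and for 0 all lay above. Over all tested genes these separations held for 9.65% and 8.32%. In 8 of the 10 members ROSA 1 and ROSA 2 were the highest 2 libraries, the exceptions being Jund and Maff, and the same was so for 12% of all tested genes. The members were proposed with the unevenness of the ROSA libraries already known.

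The promoters of 4 members are shown as examples of windows that hold the element described next, and they were picked for holding it. Fos, Fosb and Junb were high in ROSA 1 and ROSA 2, and Maff had the smallest p. Each line gives the 250 bases before a RefSeq transcription start (GRCm38.p6), 5′ to 3′ on the strand of the gene. Capitals mark each match of TGACG or its complement CGTCA, the core of the cyclic AMP response element bound by ATF and CREB proteins, and in Maff the full element TGACGTCA, which contains both. Fos lies at chr12:85473640-85473889 on the plus strand, Fosb at chr7:19310046-19310295 on the minus strand, Junb at chr8:84978749-84978998 on the minus strand, and the Maff window, which precedes the second of its 3 RefSeq starts, at chr15:79347270-79347519 on the plus strand.
Fos: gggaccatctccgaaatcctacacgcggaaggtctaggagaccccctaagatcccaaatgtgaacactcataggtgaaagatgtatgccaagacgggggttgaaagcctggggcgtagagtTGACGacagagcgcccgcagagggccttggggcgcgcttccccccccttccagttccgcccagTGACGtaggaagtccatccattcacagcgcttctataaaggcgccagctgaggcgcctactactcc
Fosb: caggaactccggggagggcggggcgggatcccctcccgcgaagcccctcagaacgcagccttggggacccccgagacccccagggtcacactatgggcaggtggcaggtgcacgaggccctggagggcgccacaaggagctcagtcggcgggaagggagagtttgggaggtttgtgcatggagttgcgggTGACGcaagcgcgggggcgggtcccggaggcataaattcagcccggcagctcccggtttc
Junb: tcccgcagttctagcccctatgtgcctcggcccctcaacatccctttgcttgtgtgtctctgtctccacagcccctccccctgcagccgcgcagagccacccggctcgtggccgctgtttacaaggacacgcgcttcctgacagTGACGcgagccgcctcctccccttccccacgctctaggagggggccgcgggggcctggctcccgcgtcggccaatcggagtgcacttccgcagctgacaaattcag
Maff: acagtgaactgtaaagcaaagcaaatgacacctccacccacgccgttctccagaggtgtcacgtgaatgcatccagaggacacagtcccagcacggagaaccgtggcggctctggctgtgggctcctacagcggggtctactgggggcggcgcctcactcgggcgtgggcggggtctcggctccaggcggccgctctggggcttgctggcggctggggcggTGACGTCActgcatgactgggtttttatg

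RefSeq promoter windows were found for 9 of the 10 members, 11 windows in all, and Fosl1 was not among them. Fos has the core at 129 and at 66 bases before its start, Fosb at 60 and Junb at 106, and the full element of Maff begins 29 bases before the start. With single cores in Atf3 and Mafk, 6 of the 9 matched members held the core, which was searched for after the sequences had been seen. Jun, Fosl2 and Jund held none, although Jun and Fosl2 were also high in ROSA 1 and ROSA 2. Of the 3 Maff windows, the first held none and the third a single core. On both strands and over the same length, 17.8% of all 32851 RefSeq windows held the core and 1.55% the full element. Those shares are per window, whereas a member was counted if any of its windows held the core. The AP-1 element TGANTCA was in 0 member windows and in 6.75% of all windows, and the CArG box of serum response factor in 0 and in 1.47%. Only exact letters inside these windows were searched, so variant elements and sites further upstream would be missed. The Jun window, for example, holds tgacatca, the full element with A in place of G, which none of the searched patterns matches. The letters TGCTGA, the core recognised by Maf proteins, occurred in Mafk and in 16.1% of all windows. The RefSeq starts of Fosl2 and Atf3 lie 671 and 34706 bases inside the GENCODE spans of those genes, that of the Maff window shown 899 bases inside, and that of Jund lies upstream of its span. All 250 bases of the Fosl2 window lie within annotated exons on its strand.

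The spread within the ROSA group was larger than within the BMPR2 DELX group for all 10 members, as an SD of log2 CPM over 4 libraries. The same was so for 44.4% of all tested genes. Fosb had an SD of 0.24 in BMPR2 DELX and 2.39 in ROSA, where it ranked 3 from the top among 14887 genes. Junb had 0.039 and 0.91, Fos 0.21 and 0.86, and Atf3 0.86 and 1.21. In contrast Maff had 0.044 in BMPR2 DELX and 0.15 in ROSA, Mafk 0.12 and 0.16, and Jund 0.14 and 0.15, against medians over all tested genes of 0.17 and 0.15.

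ROSA 1 had the highest share of unassigned reads, 21.95%, and of unmapped reads, 5.69%. ROSA 2, the library with the highest value of 8 of the 10 members, had 16.1% unassigned and 2.88% unmapped reads, within the range of the other libraries. The summed level of 6 mesothelial markers was 70.6 to 86.1 CPM over the BMPR2 DELX libraries, against 122, 107, 88.4 and 87.75 CPM in ROSA 1 to 4, before TMM scaling. Those sums did not overlap, but the list's members went both ways. The uroplakin gene Upk1b had 6.56, 4.84, 5.49 and 2.36 CPM in BMPR2 DELX 1 to 4, against 47.0, 28.8, 19.0 and 14.3 CPM in ROSA 1 to 4. Wt1, the most abundant of the list in all BMPR2 DELX libraries, was higher in each of them, with 48.6, 53.15, 62.4 and 52.7 CPM in BMPR2 DELX 1 to 4, against 46.05, 42.3, 40.0 and 43.3 CPM in ROSA 1 to 4. The keratin gene Krt19, also an epithelial marker, had 7.58 to 21.4 CPM across BMPR2 DELX and 20.6 to 29.6 CPM across ROSA, and the remaining 3 genes overlapped between the groups at 7.04 CPM or less. The summed level of 10 endothelial markers spanned 308 to 1431 CPM across BMPR2 DELX, against 988.5, 1271, 567 and 921 CPM in ROSA 1 to 4. ROSA 2 and ROSA 1 were thus the highest of their group, with ROSA 4 close to ROSA 1. The sums of 10 macrophage markers did not overlap either, 39.6 to 70.5 CPM across BMPR2 DELX and 22.7 to 36.4 CPM across ROSA, and 6 of the 10 stayed under 1 CPM in all libraries. The adipocyte sums, 266 to 316 CPM across BMPR2 DELX and 185 to 232 CPM across ROSA, were made up almost wholly of 3 genes. The lipase gene Lpl had 181.5 to 246 CPM across BMPR2 DELX and 114 to 159 CPM across ROSA. Pparg had 19.4 to 26.9 CPM in the BMPR2 DELX libraries and 11.4 to 18.4 CPM in the ROSA libraries, while Fabp4 overlapped, with 33.8 to 62.9 CPM in BMPR2 DELX and 48.4 to 71.7 CPM in ROSA. No gene of these lists was at 0 counts in every library. Fibroblast, smooth muscle, leukocyte and epithelial sums overlapped. The part of these differences, or of the unassigned reads, in the levels of the AP-1 genes was not tested.

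Levels of different members can be compared per length, as CPM per kilobase of merged GENCODE exon. In BMPR2 DELX libraries Jund led with 68.8 ± 6.73 (SD, n = 4), followed by Junb at 49.3 ± 1.33 and Maff at 48.3 ± 1.5, which overlapped each other. Fosl2 at 29.5 ± 1.47, Jun at 26.6 ± 3.55, Mafk at 23.3 ± 1.86 and Fosl1 at 23.2 ± 3.32 formed a middle group in which each overlapped its neighbour. Fos at 4.99 ± 0.69, Atf3 at 2.22 ± 1.15 and Fosb at 0.586 ± 0.10 were the lowest, without overlap between neighbours. In ROSA libraries the order began with Junb at 81.0 ± 47.2, Maff at 77.3 ± 8.53 and Jund at 65.2 ± 6.92, and Fosl1 followed at 50.2 ± 12.3. Merged exons count every annotated isoform, so genes with long alternative exons appear lower.

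The makeup of the Fos subfamily differed along with its total. Its 4 genes summed to 52.9, 60.5, 56.2 and 63.5 CPM per kilobase in BMPR2 DELX 1 to 4, against 120.5, 144, 80.6 and 76.1 in ROSA 1 to 4. Fosl2 made up 48.2% to 53.4% of that sum in BMPR2 DELX and 28.8% to 41.9% in ROSA. Fosl1 made up 35.6% to 42.5% in BMPR2 DELX and 44.0% to 56.2% in ROSA. Fosb took 0.912% to 1.14% in BMPR2 DELX, and 10.6%, 17.7%, 1.53% and 1.20% in ROSA 1 to 4. Thus ROSA 3 and ROSA 4, which lacked the high Fosb level, still carried more Fosl1 in proportion than each BMPR2 DELX library.

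In the Jun subfamily the sums overlapped, with 134 to 153 CPM per kilobase in BMPR2 DELX, against 216, 257, 125 and 135 in ROSA 1 to 4. Jund was the largest part in each BMPR2 DELX library, 45.9% to 49.2%, and also in ROSA 3 and ROSA 4, with 46.1% and 46.3%. In ROSA 1 and ROSA 2 Junb was the largest, with 49.9% and 52.1%. The ratio of the Fos sum to the Jun sum was 0.377, 0.396, 0.421 and 0.418 in BMPR2 DELX 1 to 4, against 0.557, 0.561, 0.646 and 0.562 in ROSA 1 to 4. This ratio separated the groups and was highest in ROSA 3. The 2 small Maf genes summed to 67.8 to 75.5 CPM per kilobase in BMPR2 DELX and 106 to 132 in ROSA, with Maff at 66.3% to 69.1% of the sum in BMPR2 DELX and 66.8% to 70% of the sum in ROSA.

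**Figure D3:**
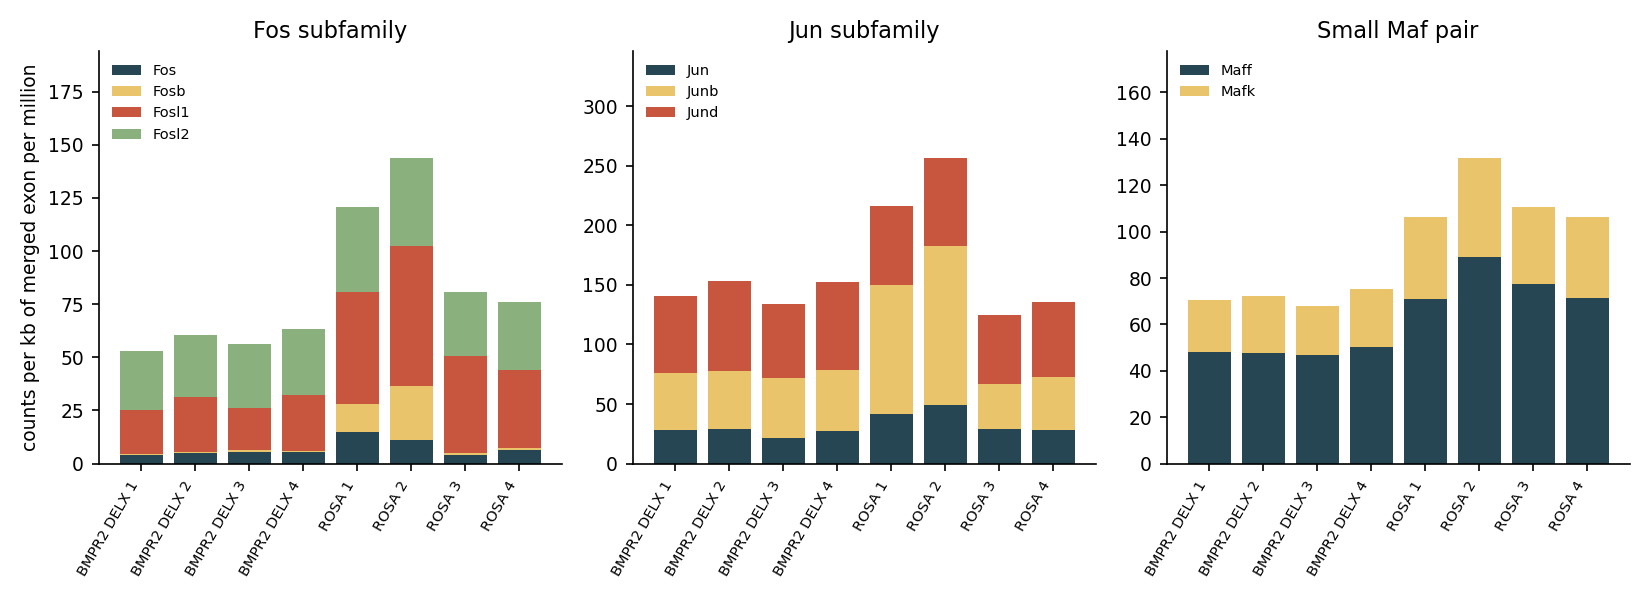
CPM per kilobase of merged exon (vertical axes, from 0), stacked by gene, for the Fos subfamily, the Jun subfamily and the small Maf pair in each BMPR2 DELX and ROSA library. The Fosb and Junb segments are large in ROSA 1 and ROSA 2, the Fosl1 segment is larger in all ROSA libraries, and the share of Maff in the small Maf pair stays between 66.3% and 70%.

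Whether paralogs differed in their response was tested on the within-library log2 difference of 3 pairs, by a two-sided exact permutation test over the 70 assignments of libraries to groups, whose smallest p is 0.0286. The difference of Jun minus Jund was -0.44 ± 0.14 in BMPR2 DELX and 0.08 ± 0.26 in ROSA (SD, n = 4 each), all BMPR2 DELX libraries being lower. The shift of -0.52 reached the smallest exact p of 0.0286, which became 0.0858 after Benjamini-Hochberg adjustment over the 3 pairs and so did not pass. Fos minus Fosl2 was -4.61 ± 0.15 in BMPR2 DELX and -4.17 ± 0.66 in ROSA, a shift of -0.44 (exact permutation p 0.257, adjusted 0.386). Maff minus Mafk was 0.47 ± 0.08 and 0.50 ± 0.10, a shift of -0.03 (exact permutation p 0.657, adjusted 0.657).

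The likeness of profiles was measured as the root mean square difference of centred log2 CPM over the 8 libraries, among 11701 named genes with a mean of at least 1 CPM. Closest to Fos were Zfp36, which encodes an RNA-binding protein that destabilises inflammatory transcripts, at 0.18, the atypical chemokine receptor gene Ackr4 at 0.19, the desmosomal gene Perp at 0.23 and the heparan sulfate proteoglycan gene Sdc4 at 0.23. Zfp36 had 38.8, 46.6, 56.5 and 53.9 CPM in BMPR2 DELX 1 to 4, against 119.5, 109, 42.5 and 47.1 CPM in ROSA 1 to 4, with the same 2 libraries high. Closest to Maff was the translational regulator gene Cpeb2 at 0.059, with 47.4, 42.1, 46.8 and 49.0 CPM in BMPR2 DELX 1 to 4, against 68.2, 90.7, 75.5 and 71.0 CPM in ROSA 1 to 4. As for Maff, ROSA 2 was the highest library and ROSA 1 the lowest of its group. Among the members themselves, the closest pair was Maff and Mafk at 0.079, then Fosl2 with Jun and with Jund at 0.20 each. Jun with Mafk at 0.21 and Fosl2 with Mafk at 0.22 were almost as close, and Fos was nearest to Junb at 0.28. The measure is not scaled for the size of the changes, so members that vary little lie near each other across the patterns described above.

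Of 14 ATF, CREB, JDP and BATF genes, which encode other leucine zipper partners, 12 were tested and 0 were called by edgeR, with a median log2 fold change of -0.09. DESeq2 called 1 of the list lower, and 1185 genes lower over all (4.14% of its 28614 genes). At an unadjusted p below 0.05 there were 3 of the 12, near the 26.3% of all tested genes, and with 9.1% of all tested genes called, 0 of 12 does not set the list apart. Atf6, the endoplasmic reticulum stress sensor, averaged 121 ± 4.26 CPM over BMPR2 DELX libraries and 137 ± 2.81 CPM over ROSA libraries (edgeR adjusted p 0.064). Next by p, Creb1, Atf4 and Creb5 had log2 fold changes of 0.29, -0.17 and 0.46 (edgeR adjusted p 0.15, 0.16 and 0.24). Of 11 Maf and cap'n'collar genes, 7 were tested, 1 was called lower and 0 higher, against 5.15% and 3.96% of all tested genes. The third small Maf gene, Mafg, fell by 0.24 on the log2 scale (SE 0.05, edgeR adjusted p 0.023), with 77.6, 82.6, 81.8 and 84.2 CPM in BMPR2 DELX 1 to 4, against 93.1, 97.8, 97.9 and 96.6 CPM in ROSA 1 to 4. Its call was lost in 5 of the 8 fits without 1 library, namely without BMPR2 DELX 2, BMPR2 DELX 3, ROSA 1, ROSA 2 or ROSA 3, and without ROSA 1 and ROSA 2 it was -0.24 with an adjusted p of 0.15. Nfe2l2, which encodes NRF2, averaged 171 ± 5.09 CPM over BMPR2 DELX libraries and 143 ± 14.8 CPM over ROSA libraries (log2 fold change 0.25 ± 0.08, edgeR adjusted p 0.071, called without ROSA 2).

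Among 26 tested MAP kinase and serum response factor genes, 4 were called lower and 1 higher, and the median was -0.08. The shares over all tested genes were 5.15% lower and 3.96% higher. With upper-quartile factors 2 were called lower and 2 higher. Without BMPR2 DELX 1, 2 or 4 or ROSA 1 or 2, 2 were called lower, and without ROSA 1 and ROSA 2 together 0. Calls fell over all tested genes too, to 1.75% lower without ROSA 2 and 0.699% lower without ROSA 1 and ROSA 2. Map2k3, a kinase that activates p38, fell, with 113.5, 136, 108.5 and 126 CPM in BMPR2 DELX 1 to 4, against 188, 214, 175.5 and 164 CPM in ROSA 1 to 4. Its log2 fold change was -0.61 ± 0.10 (edgeR adjusted p 0.0077). Map2k7, which activates the JNK kinases that phosphorylate JUN, fell by 0.35 on the log2 scale (SE 0.06, edgeR adjusted p 0.0082), with 38.0 to 42.6 CPM across BMPR2 DELX libraries and 51.7 to 53.2 CPM across ROSA libraries. Both were called in each fit without 1 library, and without ROSA 1 and ROSA 2 they had adjusted p-values of 0.076 and 0.083. The p38 gene Mapk14 fell by 0.23 on the log2 scale and Map3k1, an upstream kinase, rose by 0.61 ± 0.14, but these calls remained in only 1 and 3 of the 8 fits without 1 library.

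Of 13 genes that dampen AP-1 signalling, 6 were called lower and 0 higher, with a median of -0.27. Over all tested genes these shares were 5.15% and 3.96%. Fits without 1 library called 1 to 5 of the list lower, and 1.75% to 4.78% of all tested genes. The ERK phosphatase gene Dusp6 had 49.2, 44.5, 46.7 and 44.7 CPM in BMPR2 DELX 1 to 4, against 95.5, 99.6, 80.0 and 67.0 CPM in ROSA 1 to 4. It fell by 0.89 on the log2 scale (SE 0.12, edgeR adjusted p 0.0033), and by 0.65 (adjusted p 0.023) without ROSA 1 and ROSA 2. Dusp10, a phosphatase of p38 and JNK, fell by 1.17 and Dusp4, a nuclear MAP kinase phosphatase, by 0.78 on the log2 scale. Dusp10 lost the call without BMPR2 DELX 1 or BMPR2 DELX 2, and Dusp4 without BMPR2 DELX 1, BMPR2 DELX 2, ROSA 1 or ROSA 2. Zfp36l2, a paralog of Zfp36, fell by 0.48 on the log2 scale, a call kept in 2 of the 8 fits, those without ROSA 3 or ROSA 4.

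Of 20 genes that textbooks give as AP-1 targets, 7 were called lower and 0 higher, with a median of -0.70, against 5.15% and 3.96% of all tested genes. Ptgs2, encoding the inducible cyclooxygenase, had 472, 390.3, 526.5 and 516 CPM in BMPR2 DELX 1 to 4, against 1841, 2234, 1442 and 981 CPM in ROSA 1 to 4. It fell by 1.77 on the log2 scale (SE 0.23, edgeR adjusted p 0.0050), and by 1.33 (adjusted p 0.020) without ROSA 1 and ROSA 2. Plaur, the urokinase receptor gene, had 125, 147, 113 and 123 CPM in BMPR2 DELX 1 to 4, against 247, 277, 212 and 199.9 CPM in ROSA 1 to 4, and fell by 0.88 (SE 0.12, edgeR adjusted p 0.0033). The stromelysin gene Mmp10 and the collagenase gene Mmp13 fell by 1.66 and 1.43 on the log2 scale, at low levels of 1.42 ± 0.31 and 1.83 ± 0.43 CPM in BMPR2 DELX, against 4.55 ± 1.51 and 4.92 ± 1.23 CPM in ROSA. These 4 target genes were called in each fit without 1 library. Without ROSA 1 and ROSA 2 the list had 4 genes called lower, Ptgs2, Plaur and Mmp10 among them, while Mmp13 had an adjusted p of 0.083. In that fit 0.699% of all tested genes were called lower.

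Of 21 other immediate early genes, 6 were called lower and 0 higher, with a median of -0.76, against 5.15% and 3.96% of all tested genes. ROSA 1 and ROSA 2 were the 2 highest libraries for 19 of the list, and for 12% of all tested genes. The orphan receptor gene Nr4a2 had 4.45, 4.14, 4.40 and 4.94 CPM in BMPR2 DELX 1 to 4, against 12.7, 14.2, 15.4 and 6.30 CPM in ROSA 1 to 4, and was highest in ROSA 3. Its log2 fold change was -1.435 ± 0.244 (edgeR adjusted p 0.010), called in all 8 fits without 1 library. Without ROSA 1 and ROSA 2 it was -1.26 with an adjusted p of 0.10. The serum and glucocorticoid kinase gene Sgk1, the zinc finger gene Klf6 and the stress gene Gadd45b fell by 0.74, 0.76 and 0.75 on the log2 scale, and their calls were kept in 4, 3 and 3 of the 8 fits. Without BMPR2 DELX 2, BMPR2 DELX 4 or ROSA 1 the list had 1 gene called lower, without ROSA 4 it had 13, and without ROSA 1 and ROSA 2 together it had 1. The shares of all tested genes called lower in those fits were 2.19% to 3.38%, 4.78% and 0.699%. Of 10 integrated stress genes, 2 were called lower and 0 higher, with a median of -0.08, against the same 5.15% and 3.96%. The phosphatase subunit gene Ppp1r15a fell by 1.03 on the log2 scale (2 of 8 fits lost the call, without BMPR2 DELX 1 or ROSA 1) and the glutathione-degrading Chac1 by 0.53, called in 1 of 8 fits. Next by p came Vldlr and Trib3, with positive log2 fold changes of 0.37 and 0.44 that were not called (edgeR adjusted p 0.16 and 0.24).

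**Figure D4:**
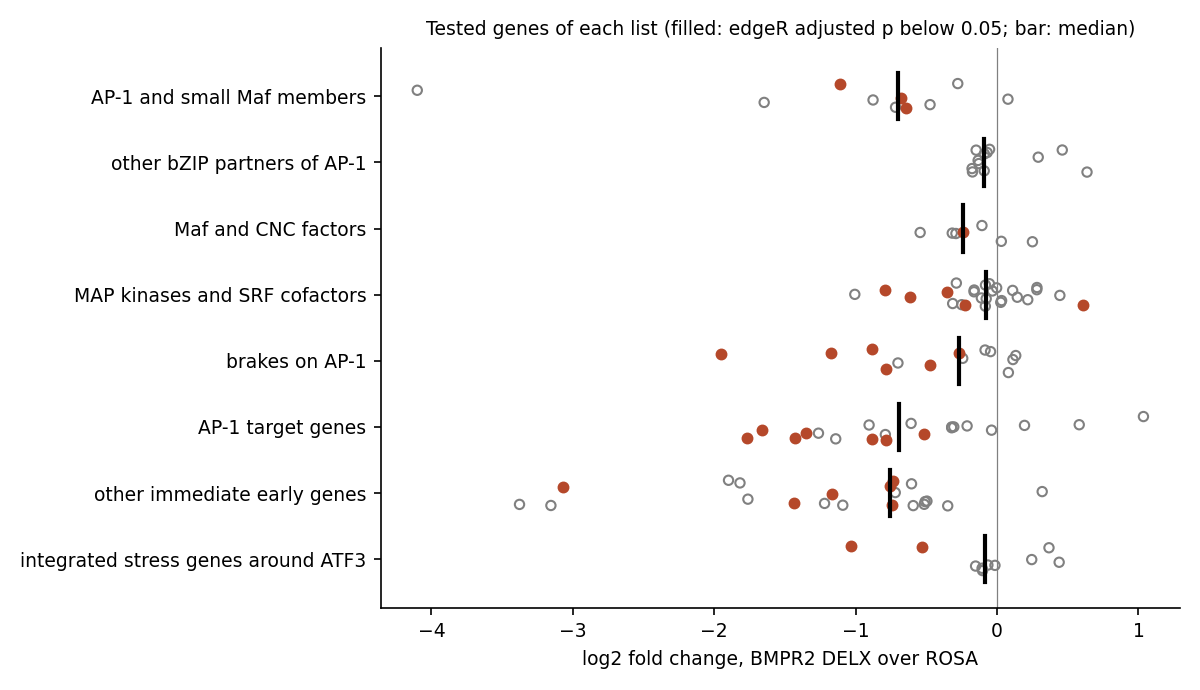
Log2 fold change of BMPR2 DELX over ROSA (horizontal axis) of each tested gene of the member list and of 7 related lists, with filled points at an edgeR adjusted p below 0.05 and a bar at the median of each list. The medians of the members, the AP-1 targets and the other immediate early genes lie between -0.76 and -0.70, and those of the remaining 5 lists between -0.27 and -0.08.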

How the data were processed

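The deposited files hold raw read counts per Ensembl gene, 1 file per library. Per the submitters' processing notes, the tools were STAR 2.5.2b and HTSeq and the build GRCm38, whose roles are not stated. The annotation release, the read layout and earlier filters are not given in the sources used here. The counts are whole numbers with totals that differ, and the authors gave no normalized values. The opposite-strand column was used, which held 92.1% to 94.0% of strand-assigned counts. The 4 rows that name no gene were kept out.

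GENCODE M21 supplied symbols, positions and exon lengths. Genes were kept with filterByExpr (14887), scaled by TMM and tested with the edgeR 4.0.16 quasi-likelihood test (robust) in R 4.3.3, with the group as the only term. A count of 0 allows up to 3 counts, 0.0687 to 0.104 CPM here, a limit of counting error only. Log2 CPM used a prior count of 2. Within-group chi-square values per degree of freedom were 31.1 or more, so no 2 libraries agreed within sampling noise.

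The members and lists were chosen with earlier results of these data known. Besides the members, the text names Bmpr2, up to 4 genes of each of 7 lists by smallest p, the 4 profiles most like Fos and, of the 4 most like Maff, the closest, the other 3 not being reported here, and cell type markers. Upk1b, Wt1, Krt19, Adipoq, Plin1, Lpl, Pparg, Fabp4, Col1a1, Acta2, Dpt, Rgs5, Lum and Dcn were chosen after their values were seen. Alternatives were DESeq2 1.42.0, limma 3.58.1 voom, factors by upper quartile or by relative log expression, no filter, 1 CPM in 4 libraries, unstranded counts, a replicate block, and fits without each library in turn. Leaving out ROSA 1 and ROSA 2 together was added after seeing the data. Figures were drawn with matplotlib 3.10.9. Promoter sequences are from RefSeq, GRCm38.p6.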

Additional observations from a re-analysis of the deposited data

How the results depend on the processing

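Fosl1, Maff and Mafk were called lower under all alternatives run. Fosb was also called by DESeq2, with the filter at 1 CPM, and without ROSA 3 or ROSA 4. Without 1 library the members called lower numbered 3 to 5, the most without ROSA 3, where Fos and Fosb were added, and 0 were called higher. Junb reversed, to 0.27, without ROSA 1 and ROSA 2, and the cause was not tested. Over all tested genes 766 were called lower and 589 higher, and with upper-quartile factors 606 and 734, which moved the median of all genes to 0.043. DESeq2 called 1185 lower and 1081 higher. Fits without 1 library gave 264 to 721 lower and 213 to 545 higher, over 1.5 times fewer in a direction without BMPR2 DELX 1, 2 or 3 or ROSA 1 or 2, and the fit without ROSA 1 and ROSA 2 gave 108 lower and 64 higher. Over the 7 lists, 26 genes were called lower and 1 higher. With upper-quartile factors 3 were higher, with DESeq2 41 lower and 3 higher, with no count filter 16 lower, without 1 library 11 to 32 lower and 0 to 2 higher, over 1.5 times fewer lower without BMPR2 DELX 1, 2 or 4 or ROSA 1 or 2, and without ROSA 1 and ROSA 2 7 lower. The causes were not tested.

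The labels give both groups the numbers 1 to 4 but state no pairing. Deviations of same-numbered libraries correlated at 0.005, 0.21, 0.25 and 0.093, and of the BMPR2 DELX libraries only 2 and 3 correlated best with the ROSA library of their own number, so the numbers were not taken to pair the samples. With the replicate number as a block, 682 genes were called lower and 563 higher, and 4 members were lower, Atf3 being added at -1.45 (edgeR adjusted p 0.010), while Fosb was at -3.02 (adjusted p 0.20). For the paralog pairs, sign flips within the block gave exact p-values of 0.375 for Fos minus Fosl2, 0.125 for Jun minus Jund and 0.50 for Maff minus Mafk, where 0.125 is the smallest possible. Without 1 library their shifts ran from -0.71 to -0.19, -0.62 to -0.44 and -0.07 to 0.01. Atf3 and Fosb rest on few counts in BMPR2 DELX, from 65 and 92 counts upward, and differences among those libraries were not tested.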
